A study of Rattus norvegicus with 8 samples.

Results

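The miR-30 family was followed across the 4 groups of a rat study of vestibular compensation. Its members were taken as every array miRNA named rno-miR-30a to rno-miR-30e, with any precursor or arm suffix. This gave 11 of 758 rat miRNAs, of which 5 were 5p arms and 6 were 3p arms. All 11 were flagged as detected on all 8 arrays, a flag given per miRNA and not per probe.

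The groups were UVD 4 d, UVD 4 h, SO 4 d and SO 4 h, with 2 arrays each. All were male Sprague–Dawley rats, 7 weeks old. In the UVD (unilateral vestibular deafferentation) groups the left labyrinth was opened and destroyed with ethanol, whereas the SO (sham operation) groups had the same approach without fenestration or ethanol. The left medial vestibular nucleus (MVN), a brainstem nucleus that receives input from the inner ear, was taken 4 d or 4 h after surgery, and MVNs of 3 rats were pooled for each array. The 2 arrays of a group were thus pools of separate animals, and spread between single rats could not be seen.

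A miRNA hairpin can release one strand from each side, the 5p arm and the 3p arm. Bases 2 to 8 of a mature miRNA form its seed, the part that pairs with target mRNAs. The 5p arms of miR-30 share one seed and are conserved among vertebrates. miR-30a-5p is known from human cells as a repressor of the autophagy gene BECN1, and the miR-30a hairpin serves as a common backbone for short hairpin RNA vectors. miR-384-5p carries the same seed and has been linked to long-term potentiation in rat hippocampus.

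Of the 11 members, 6 matched a mature sequence of the RefSeq table for rat build GRCr8, as did 685 of the 758 array miRNAs. These sequences are shown because the seed sorts the members into those that could share targets and those that could not. The seed is in capitals. The 5p arms with a sequence, and the only other matched miRNA of the array with their seed, miR-384-5p, were as follows.
rno-miR-30a-5p: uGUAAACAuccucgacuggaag
rno-miR-30c-5p: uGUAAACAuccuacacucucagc
rno-miR-30e-5p: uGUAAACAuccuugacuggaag
rno-miR-384-5p: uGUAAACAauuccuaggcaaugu
The 3p arms with a sequence were as follows.
rno-miR-30a-3p: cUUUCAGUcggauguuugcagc
rno-miR-30c-1-3p: cUGGGAGAggguuguuuacucc
rno-miR-30c-2-3p: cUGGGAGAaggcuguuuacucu
The seed GUAAACA stood in 4 of the 685 matched miRNAs (0.584%), 3 of them members. The 3p arms of miR-30c-1 and miR-30c-2 shared the seed UGGGAGA with no other matched miRNA, and UUUCAGU was found in miR-30a-3p alone. Counted from the 5′ end, miR-30a-5p and miR-30e-5p differed by the single substitution C13U. miR-30a-5p and miR-30c-5p were identical at 17 of 22 positions, and miR-30c-1-3p and miR-30c-2-3p at 19 of 22. Signal of such close pairs may not be fully separated by array probes, which was not tested.

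The family comes from 6 precursor genes in 3 neighbouring pairs (GRCr8). Mir30e (chr5:139637450-139637541) and Mir30c1 (chr5:139634455-139634543) lie 2906 bases apart within the span of the protein-coding gene Nfyc. Mir30d (chr7:102025345-102025426) and Mir30b (chr7:102021543-102021629) lie 3715 bases apart within the span of an annotated lncRNA, LOC102551574. Mir30a (chr9:33233941-33234011), with no annotated gene across it, and Mir30c2 (chr9:33253682-33253765), within an annotated lncRNA and a pseudogene, lie 19670 bases apart. The mature miR-30c-5p is the same from Mir30c1 and Mir30c2, so its value is a sum over 2 genes.

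Each array is a 1-colour scan of labelled RNA, and the value per miRNA is its total gene signal, a brightness summed over probes. It was quantile normalized, which gives the miRNAs at one rank the same value on every array. Equal normalized intensities on several arrays therefore mean equal rank, and a group SD of 0 is possible. Each member was measured by 16 spots per array. The spread among spots of one probe had a median coefficient of variation of 4.51% for the 5p arms and 7.72% for miR-30a-3p and miR-30e-3p. For the other 3p arms the median was 14.3% and the highest 326%. Dim probes of miR-30b-3p, miR-30c-1-3p and miR-30d-3p had 0 to 2 of 32 spots well above background over the arrays. No spot was saturated. Probes of different miRNAs differ in brightness per molecule, so no level is set against that of another miRNA.

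On each array 378 to 430 miRNAs were detected, and limma was run on the 422 flagged as detected in the full pair of arrays of 1 group or more. All arrays were of 1 slide and 1 scan, with UVD arrays in one row and SO arrays in the other, and 4 d and 4 h in different columns, so slide position and group cannot be told apart. The hindbrain miRNAs (3 of 3) and neuronal miRNAs (5 of 5) of the marker lists were detected on all 8 arrays, as were the lists for oligodendrocytes, glia, leukocytes, erythroid cells, vessels, choroid plexus and muscle. Of the 3 miRNAs of ciliated ependyma, 2 were. In whole tissue, fewer cells of a type and less miRNA per cell cannot be told apart.

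The 5p arms were bright on every array, and none was called in any comparison at an adjusted p under 0.05. After normalization, miR-30e-5p and miR-30c-5p were lowest in the SO 4 h group. miR-30a-5p and miR-30b-5p had their highest group mean in UVD 4 d and their lowest in UVD 4 h. The group mean of miR-30d-5p was highest in UVD 4 d and lowest in SO 4 d.

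**Figure D1:**
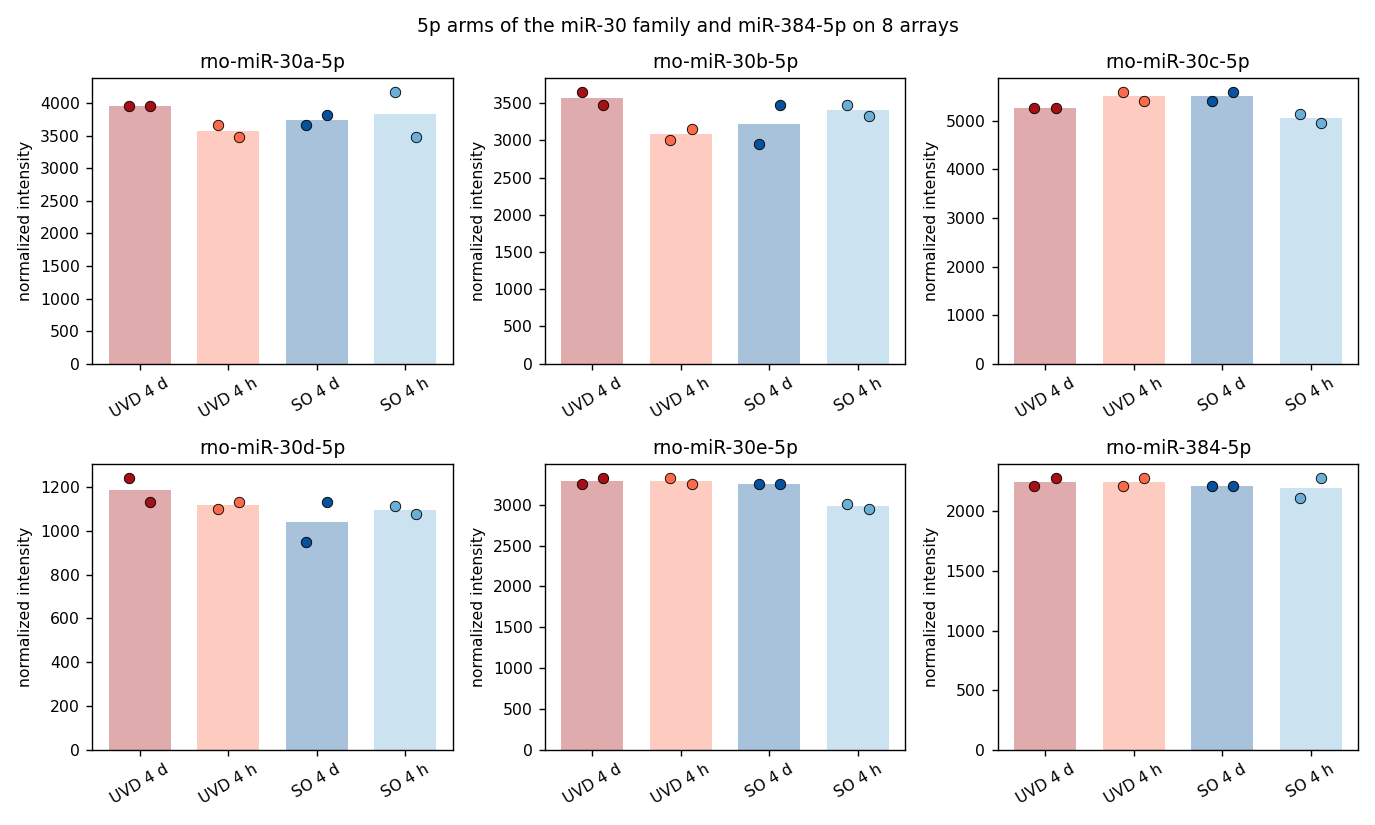
Normalized intensity (linear axis from 0) of the 5 miR-30 5p arms and miR-384-5p in UVD 4 d, UVD 4 h, SO 4 d and SO 4 h. Points are arrays of 3 pooled rats and bars are means of 2 arrays. The 2 SO 4 h points of miR-30e-5p, 3011 and 2949, lie below all 6 others.

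miR-30e-5p, the strand of Mir30e on chromosome 5, gave the tightest normalized values of the family. Its normalized intensity was 3257 and 3329 in UVD 4 d, 3329 and 3257 in UVD 4 h, 3257 and 3257 in SO 4 d, and 3011 and 2949 in SO 4 h. After normalization the SO 4 h arrays stood below the rest and the other 3 groups overlapped. Before it, the total gene signal was 2834 and 3250 in SO 4 h, which spanned the 2844 and 3047 of UVD 4 h. Its SD within groups was 0.019 on the log2 scale, and 1.18% of tested miRNAs had a smaller one.

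miR-30c-5p, made in part from the hairpin next to Mir30e, was 5271 on both UVD 4 d arrays, 5604 and 5418 in UVD 4 h, 5418 and 5604 in SO 4 d, and 5151 and 4964 in SO 4 h. UVD 4 h and SO 4 d had the same pair of ranks. UVD 4 d lay below both and SO 4 h below all, with no overlap at either step. Before normalization its SO 4 h arrays, 4481 and 5193, spanned those of UVD 4 h, 4846 and 5043. The whole range over 8 arrays was 1.13-fold, as it was for miR-30e-5p.

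miR-30a-5p, from chromosome 9, was 3957 on both UVD 4 d arrays, 3658 and 3484 in UVD 4 h, 3658 and 3820 in SO 4 d, and 4180 and 3484 in SO 4 h. The SO 4 h arrays spanned the whole range of the 8 arrays. No neighbours in the order of group means, UVD 4 d, SO 4 h, SO 4 d and UVD 4 h, were separate.

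miR-30b-5p, from the chromosome 7 pair, was 3658 and 3484 in UVD 4 d, 3011 and 3156 in UVD 4 h, 2949 and 3484 in SO 4 d, and 3484 and 3329 in SO 4 h. UVD 4 h lay below both UVD 4 d and SO 4 h without overlap, while the SO 4 d arrays spanned all but the top of the range. miR-30d-5p, its neighbour, was 1242 and 1133 in UVD 4 d, 1099 and 1133 in UVD 4 h, 949.5 and 1133 in SO 4 d, and 1115 and 1077 in SO 4 h. One SO 4 d array held the lowest value of both miR-30b-5p and miR-30d-5p, and all neighbours in the order of groups overlapped for both.

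The seed relative miR-384-5p, from chromosome X, was 2212 and 2282 in UVD 4 d, 2212 and 2282 in UVD 4 h, 2212 and 2212 in SO 4 d, and 2111 and 2282 in SO 4 h. All neighbouring groups overlapped, and its range over the 8 arrays was 1.08-fold. Its log2 fold changes lay between 0.00 and 0.03 in the 4 comparisons of groups, with adjusted p from 0.797 to 1 (limma). Its other arm, miR-384-3p, gave 30.5 to 36.5 over the 8 arrays.

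The 3p arms, apart from miR-30a-3p and miR-30e-3p, were more scattered within groups than the 5p arms. miR-30a-3p was 414.2 and 355.1 in UVD 4 d, 384.6 and 384.6 in UVD 4 h, 355.1 and 365.6 in SO 4 d, and 334.1 and 334.1 in SO 4 h. Its SO 4 h arrays were the lowest and were separate from every other group. Before normalization they were 312.6 and 362.8 and overlapped the UVD 4 h arrays, 336.6 and 363.2. miR-30e-3p was 452.1 and 452.1 in UVD 4 d, 452.1 and 443.6 in UVD 4 h, 434.2 and 491.2 in SO 4 d, and 434.2 and 424.7 in SO 4 h. Here the SO 4 h arrays touched SO 4 d at 434.2 and lay below both UVD groups.

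**Figure D2:**
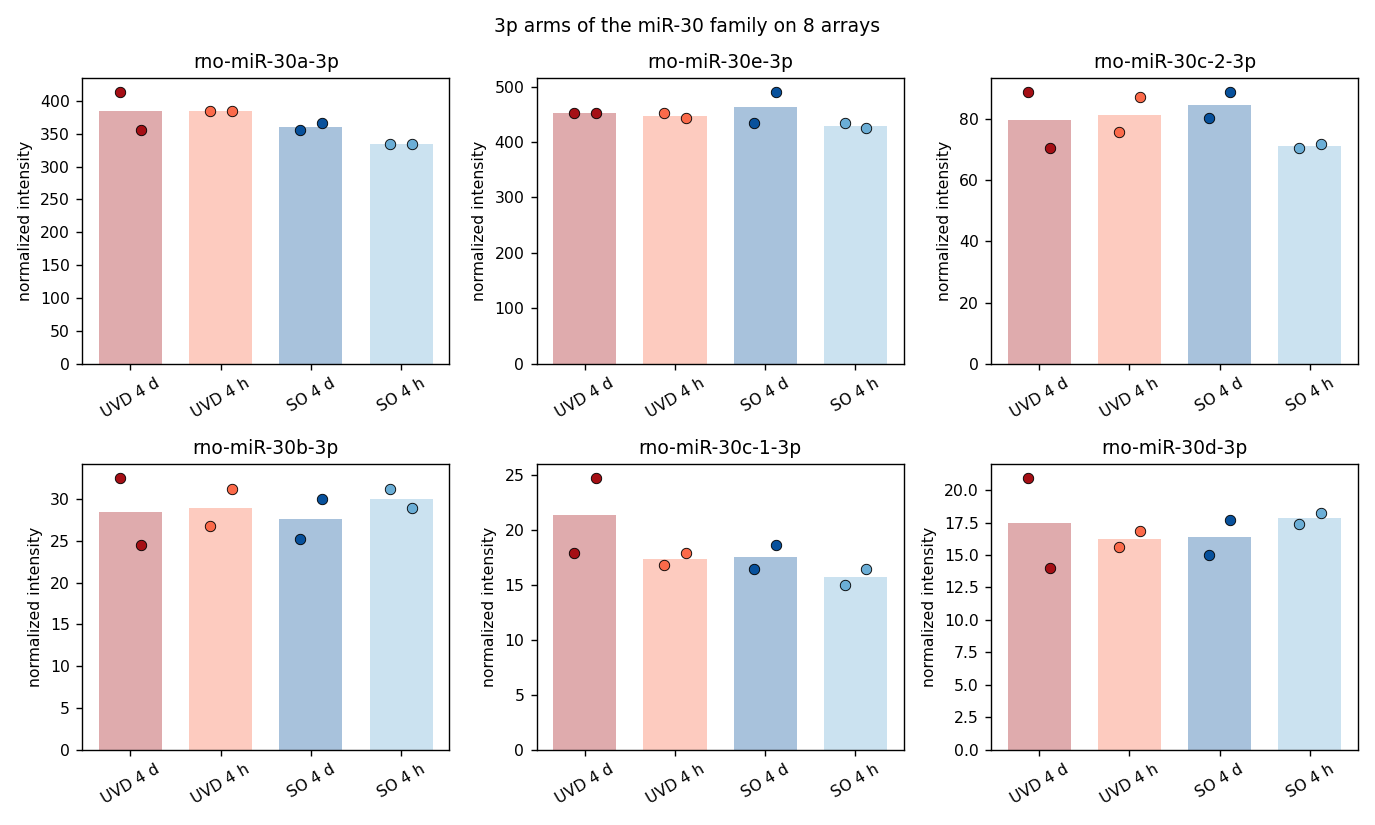
Normalized intensity (linear axis from 0, own scale per panel) of the 6 miR-30 3p arms in UVD 4 d, UVD 4 h, SO 4 d and SO 4 h. Points are arrays and bars are means of 2 arrays. miR-30a-3p has its 2 SO 4 h arrays at 334.1, below the other 6, while the UVD 4 d arrays of miR-30d-3p, 20.9 and 14.0, span its whole range.

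miR-30c-2-3p was 89.1 and 70.7 in UVD 4 d, 75.8 and 87.4 in UVD 4 h, 80.5 and 89.1 in SO 4 d, and 70.7 and 71.8 in SO 4 h. miR-30c-1-3p was 17.9 and 24.8 in UVD 4 d, 16.8 and 17.9 in UVD 4 h, 16.4 and 18.6 in SO 4 d, and 15.0 and 16.4 in SO 4 h. The first UVD 4 d array of miR-30c-2-3p was level with the highest SO 4 d array, and the second with the lowest SO 4 h array. For miR-30c-1-3p a single UVD 4 d array set the top of the range. miR-30b-3p ran from 24.4 to 32.5 and miR-30d-3p from 14.0 to 20.9, and for both the lowest and the highest value came from the 2 UVD 4 d arrays. Before normalization, 10 of the 11 members were brightest on UVD 4 d replicate 1, the array with the highest 75th percentile of total gene signal over all miRNAs (124.9, against 95.8 to 123.7 on the others).

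The comparison of UVD 4 h with SO 4 h asks what differs soon after loss of vestibular input. miR-30e-5p averaged 3293 ± 51.03 in UVD 4 h and 2980 ± 43.6 in SO 4 h (SD, n = 2 each), a log2 fold change of 0.14 (SE 0.049, 95% CI 0.02 to 0.27, unadjusted p = 0.0298, adjusted p = 0.247, limma). miR-30a-3p averaged 384.6 in UVD 4 h and 334.1 in SO 4 h, with no difference between arrays of a group, a log2 fold change of 0.20 (95% CI -0.01 to 0.42, adjusted p = 0.299). miR-30c-5p averaged 5511 ± 132 in UVD 4 h and 5057 ± 132 in SO 4 h, 0.12 on the log2 scale (95% CI -0.01 to 0.26, adjusted p = 0.310). These values did not pass the test after adjustment over all 422 miRNAs. That of miR-30e-5p was -0.04 without scaling between arrays, 0.22 with the 75th percentile over all miRNAs and 0.98 (SE 0.88) from the median spot signal. That of miR-30c-5p was 0.02 on the normalized values of the authors, 0.27 and 0.30 with the 2 percentile scalings and -0.55 (SE 0.27) from the median spot signal. That of miR-30a-3p ran from 0.05 without scaling to 0.32 with the percentile over all miRNAs. The median spot signal is 1 median over all spots of a miRNA apart from outlier spots. Where the 2 probes differ in brightness, it can fall on either. The probes of miR-30e-5p had mean spot signals of 1171 to 1704 and 3983 to 5952 over the arrays. Those of miR-30c-5p had 1766 to 2736 and 6455 to 10265. How far this moved the values from that signal was not tested.

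No member of 11 was called at 4 h, where 0.474% of tested miRNAs (2 of 422) were. At an unadjusted p under 0.05, miR-30e-5p alone of the members was counted, against 17.1% of tested miRNAs (72). The UVD 4 h and SO 4 h arrays did not overlap for 8 of 11 members, against 50.9% of tested miRNAs (215 of 422). Of these 8, miR-30b-5p (-0.14) and miR-30d-3p (-0.13) were lower in UVD 4 h and the other 6 were higher. The log2 fold changes of the 5p arms ran from -0.14 to 0.14, with a median of 0.03, which became -0.06 without scaling between arrays. With each array scaled to its 75th percentile, over detected or over all miRNAs, all 11 members were above 0, and the median of all tested miRNAs was itself 0.12 or 0.15. Those of the 3p arms ran from -0.13 to 0.20 with a median of 0.10, and the median of all tested miRNAs was -0.01. The 95% intervals of the 5p arms reached down to a fold of 0.766 and up to 1.22, and those of the 3p arms reached 0.636 and 1.49.

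The SO 4 h arrays, which after normalization were lowest for miR-30e-5p, miR-30c-5p and miR-30a-3p, were also below all others in the summed normalized signal of 3 marker lists. The summed normalized intensity of the 5 leukocyte miRNAs was 3444 to 3497 in UVD 4 h and 3161 to 3178 in SO 4 h, and the 3 choroid plexus miRNAs gave 3991 on both UVD 4 h arrays and 3860 on both SO 4 h arrays. The 3 ciliated ependyma miRNAs summed to 1916 to 2049 in UVD 4 h and 1335 to 1519 in SO 4 h. All of these miRNAs were detected on every array, apart from 1 of ciliated ependyma. Of the other 7 lists, muscle was higher (2127 to 2145 in UVD 4 h and 1599 to 2001 in SO 4 h), oligodendrocytes (53601 to 54284 in UVD 4 h and 54661 to 56808 in SO 4 h) and vessels (7586 to 7890 in UVD 4 h and 7919 to 8064 in SO 4 h) were lower, and 4 overlapped. Their part in the values of the miR-30 members was not tested.

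Each probe was scaled by the normalization of its miRNA, and the 2 probes of each 5p arm then moved the same way at 4 h. Probes of one miRNA share that factor, so a common shift is built into them and their likeness is no separate support. Without scaling between arrays, miR-30e-5p gave -0.04, miR-30c-5p 0.035 and miR-30a-3p 0.05. The scaled probes of miR-30e-5p differed between UVD 4 h and SO 4 h by 0.13 and 0.13 on the log2 scale. Those of miR-30c-5p gave 0.13 and 0.17, and those of miR-30b-5p -0.15 and -0.12. The probes of miR-30a-5p both gave -0.10, whereas both probes of miR-30a-3p, the other strand of that hairpin, were above 0 at 0.20 and 0.21. The log2 ratio of normalized 5p to 3p signal for miR-30a, relative to its mean over 8 arrays, was -0.12 and -0.19 in UVD 4 h and 0.28 and 0.01 in SO 4 h. The ratio was lower on both UVD 4 h arrays, and the gap between the 2 SO 4 h arrays was wider than that between the nearest arrays of the groups. For miR-30e the ratio was 0.04 and 0.04 in UVD 4 h and -0.05 and -0.04 in SO 4 h, and for miR-30d it was 0.10 and 0.03 in UVD 4 h and -0.04 and -0.16 in SO 4 h. After normalization both were higher on the UVD 4 h arrays without overlap, the opposite of miR-30a. These ratios were taken from normalized values, in which each arm is set by its own rank. A ratio within an array needs no scaling between arrays. Taken from the total gene signal before normalization, the ratios of miR-30e and miR-30d overlapped between UVD 4 h and SO 4 h. That of miR-30a was still lower on both UVD 4 h arrays. For miR-30b the groups overlapped (-0.04 and -0.19 in UVD 4 h, -0.05 and -0.0034 in SO 4 h). The ratios were not tested, and single miRNAs did not overlap at 4 h in 50.9% of those tested. The 2 dimmer probes of miR-30d-3p had 0 and 2 of 32 spots well above background. The 3p probes of miR-30e gave 0.05 and 0.12, against 0.13 and 0.13 for its 5p probes.

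**Figure D3:**
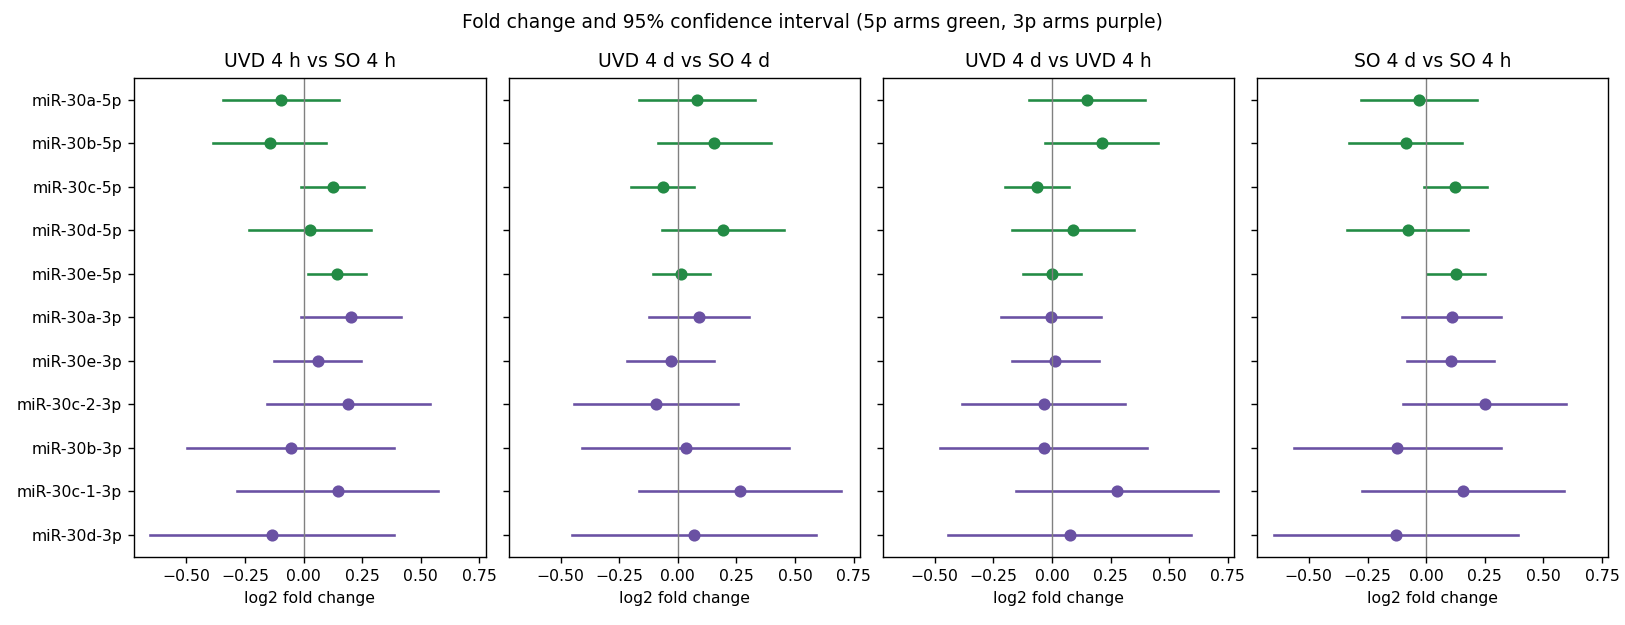
log2 fold change (points) with 95% confidence interval (lines, limma) of the 11 members in each comparison of 2 groups, UVD over SO or 4 d over 4 h. The intervals of miR-30e-5p lie above 0 for UVD 4 h vs SO 4 h (0.02 to 0.27) and for SO 4 d vs SO 4 h (0.0049 to 0.25), and every other interval includes 0.

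The comparison of UVD 4 d with SO 4 d asks what differs once the deficits have eased. miR-30d-5p averaged 1188 ± 76.8 in UVD 4 d and 1041 ± 130.0 in SO 4 d, 0.19 on the log2 scale (95% CI -0.07 to 0.45, adjusted p = 0.745, limma). miR-30b-5p averaged 3571 ± 123 in UVD 4 d and 3216 ± 378 in SO 4 d, 0.16 on that scale (adjusted p = 0.759). miR-30c-1-3p gave 0.27 (95% CI -0.16 to 0.70, adjusted p = 0.759). The arrays of the 2 groups overlapped for all 3. Leaving out either SO 4 d array gave 0.065 (without replicate 1) and 0.32 (without replicate 2) for miR-30d-5p, and 0.031 and 0.27 for miR-30b-5p. For miR-30c-1-3p, leaving out UVD 4 d replicate 1 gave 0.51 and leaving out replicate 2 gave 0.027. Its value was 0.06 on the normalized values of the authors. Its 2 dimmer probes, with 1 and 0 of 32 spots well above background over the arrays, gave 0.58 and 0.65. The brighter ones gave 0.17 and 0.10.

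None of the 11 members was called at 4 d, and neither was any tested miRNA (0%). At an unadjusted p under 0.05, no member and 3.79% of tested miRNAs (16) were counted, and the test named in the methods also called no member after adjustment. Groups did not overlap for 2 of 11 members, miR-30a-5p, higher in UVD 4 d at 0.08, and miR-30c-5p, lower in UVD 4 d at -0.06, against 29.4% of tested miRNAs (124 of 422). The 5p arms ran from -0.06 to 0.19 on the log2 scale with a median of 0.08, which became -0.14 from the median spot signal, and all tested miRNAs had a median of -0.02. The 3p arms ran from -0.09 to 0.27. The 95% intervals of the 5p arms lay between folds of 0.871 and 1.37, and those of the 3p arms between 0.732 and 1.62. The summed signals of 5 of the 10 marker lists did not overlap at 4 d. They were higher for choroid plexus (5220 to 6900 in UVD 4 d and 3991 to 4211 in SO 4 d), neurons (50980 to 53989 in UVD 4 d and 46559 to 50498 in SO 4 d) and leukocytes (3853 to 4137 in UVD 4 d and 3665 to 3824 in SO 4 d). They were lower for oligodendrocytes (45282 to 53601 in UVD 4 d and 55182 to 59613 in SO 4 d) and vessels (7566 to 7614 in UVD 4 d and 8208 to 8420 in SO 4 d). Their part in these values was not tested.

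Over time in UVD rats, miR-30b-5p averaged 3571 ± 123 in UVD 4 d and 3083 ± 103 in UVD 4 h, 0.21 on the log2 scale (95% CI -0.03 to 0.45, adjusted p = 0.326, limma). miR-30a-5p averaged 3957 in UVD 4 d and 3571 ± 123 in UVD 4 h, 0.15 on that scale (adjusted p = 0.464). miR-30c-5p was lower in UVD 4 d, at 5271 against 5511 ± 132 in UVD 4 h (-0.06, adjusted p = 0.572). miR-30e-5p had the same 2 values in both groups. The arrays of miR-30a-5p, miR-30b-5p and miR-30c-5p did not overlap, which made 3 of 11 members against 44.3% of tested miRNAs (187 of 422).

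No member was called in UVD 4 d over UVD 4 h, nor was any tested miRNA (0%). At an unadjusted p under 0.05, no member and 15.4% of tested miRNAs (65) were counted, and the test named in the methods called no member after adjustment. miR-30c-1-3p had the largest value at 0.28 (95% CI -0.15 to 0.71, adjusted p = 0.433). That value was 0.51 without UVD 4 d replicate 1 and 0.041 without replicate 2. Its 2 dimmer probes, with 1 and 0 of 32 spots well above background over the arrays, gave 1.00 and 0.33. The brighter ones gave 0.10 and 0.12. The median of the 5p arms was 0.09, which became -0.05 from the median spot signal and 0.40 without scaling between arrays. Without scaling, all tested miRNAs had a median of 0.26. The summed signals of 6 of the 10 marker lists did not overlap. They were higher in UVD 4 d for choroid plexus (5220 to 6900, against 3991 in UVD 4 h), leukocytes (3853 to 4137, against 3444 to 3497 in UVD 4 h), neurons (50980 to 53989, against 46298 to 47914 in UVD 4 h), glia (12214 to 12992, against 11639 to 11997 in UVD 4 h) and ciliated ependyma (2153 to 2256, against 1916 to 2049 in UVD 4 h). They were lower for hindbrain (3214 to 3227 in UVD 4 d, against 4154 to 4841 in UVD 4 h), and their part in the miR-30 values was not tested.

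Over time in SO rats, miR-30e-5p averaged 3257 in SO 4 d and 2980 ± 43.6 in SO 4 h, 0.13 on the log2 scale (SE 0.049, 95% CI 0.0049 to 0.25, unadjusted p = 0.0442, adjusted p = 0.194, limma). miR-30c-5p averaged 5511 ± 132 in SO 4 d and 5057 ± 132 in SO 4 h, 0.12 on that scale (adjusted p = 0.238). miR-30c-2-3p averaged 84.8 ± 6.06 in SO 4 d and 71.3 ± 0.780 in SO 4 h, 0.25 on that scale (95% CI -0.10 to 0.60, adjusted p = 0.342). All 3 had SO 4 d arrays above the SO 4 h arrays, as did miR-30a-3p, and none passed the test. The value of miR-30c-5p was 0.02 on the normalized values of the authors and with normexp, -0.02 from the median spot signal and 0.32 with the 75th percentile over all miRNAs. That of miR-30e-5p was 0.29 with that percentile and 1.10 (SE 0.88) from the median spot signal, and that of miR-30c-2-3p ran from 0.10 with normexp to 0.65 from the median spot signal.

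No member was called in SO 4 d over SO 4 h, where 1.66% of tested miRNAs (7 of 422) were. At an unadjusted p under 0.05, miR-30e-5p alone of the members was counted, against 23.7% of tested miRNAs (100). Arrays did not overlap for 4 of 11 members, against 54.3% (229 of 422). The 5p arms ran from -0.09 to 0.13 with a median of -0.03, which lay above 0 under each other scaling, at 0.09 to 0.28. The 3p arms ran from -0.13 to 0.25 with a median of 0.11. UVD 4 h over SO 4 h and SO 4 d over SO 4 h share the SO 4 h arrays, so the values of miR-30e-5p in both (0.14 and 0.13) rest on the same 2 arrays. The summed signals of 7 of the 10 marker lists did not overlap between SO 4 d and SO 4 h. They were higher in SO 4 d for leukocytes (3665 to 3824, against 3161 to 3178 in SO 4 h), choroid plexus (3991 to 4211, against 3860 in SO 4 h), ciliated ependyma (2114 to 2209, against 1335 to 1519 in SO 4 h), erythroid cells (1012 to 1054, against 928.4 to 949.9 in SO 4 h), vessels (8208 to 8420, against 7919 to 8064 in SO 4 h) and muscle (2022 to 2380, against 1599 to 2001 in SO 4 h). They were lower for hindbrain (3207 to 3688 in SO 4 d, against 4005 to 4666 in SO 4 h), and their part in the miR-30 values was not tested.

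The difference between the time change in UVD and the time change in SO was -0.19 for miR-30c-5p (SE 0.075, 95% CI -0.38 to 0.0025, unadjusted p = 0.0521, adjusted p = 0.492, limma). For miR-30b-5p it was 0.30 (SE 0.13, adjusted p = 0.492), and for miR-30e-5p -0.13 (adjusted p = 0.572). No member was called, against 0.237% of tested miRNAs (1), and no member had an unadjusted p under 0.05, against 8.77% (37). The value of miR-30c-5p was 0.06 on the normalized values of the authors, and 0.22 without scaling between arrays.

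The members did not all deviate alike, which was not tested against the spread between pools. The deviation of each member from its mean over 8 arrays was compared between members as a root mean square difference on the log2 scale. The closest pair of the 55 was miR-30c-5p and miR-30e-5p, at 0.037, whose hairpins Mir30c1 and Mir30e are neighbours. The next were miR-30c-5p with miR-30e-3p (0.044), the 2 arms of miR-30e (0.057) and miR-30b-5p with miR-30d-5p (0.070), also from neighbouring hairpins. Closeness did not go with position throughout. miR-30a-5p lay nearer to miR-30b-5p (0.083) than to miR-30c-5p (0.108), and miR-30c-1-3p, the arm made from Mir30c1 alone, lay 0.174 from miR-30e-5p and 0.201 from miR-30c-5p. miR-30c-5p and miR-30e-5p also had the smallest SD within groups of the members (0.031 and 0.019), and members that vary little lie close together. These are descriptions over 8 arrays that share one normalization.

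**Figure D4:**
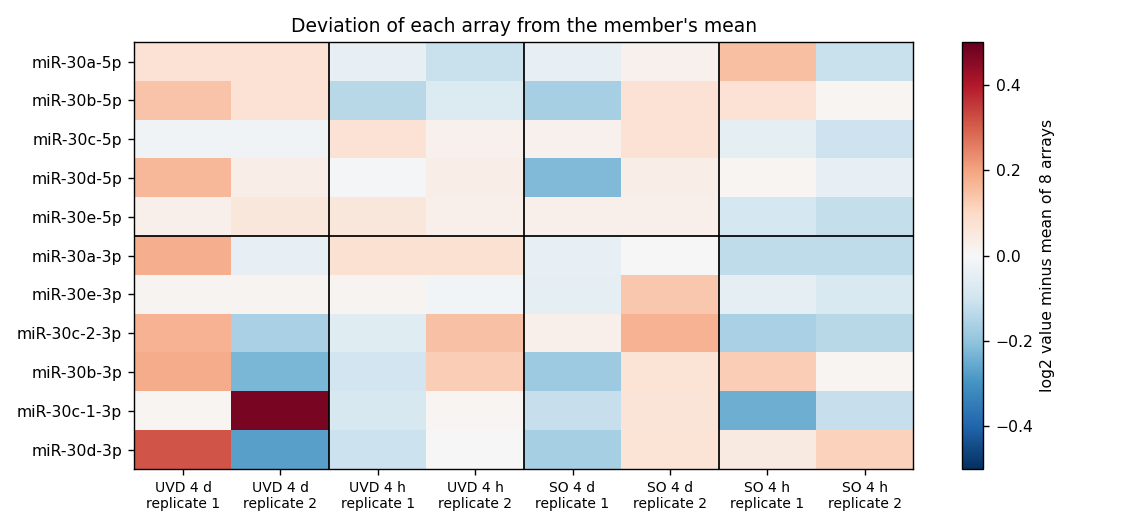
log2 normalized value minus the mean of 8 arrays (colour scale from -0.5 to 0.5) for each member (rows, 5p arms above the line) on each array (columns). Both SO 4 h arrays are below the mean for miR-30c-5p and miR-30e-5p, and the UVD 4 d arrays of miR-30d-3p lie at 0.31 and -0.27.

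The mean of the 5 5p arms deviated from its average over 8 arrays by 0.08 and 0.04 in UVD 4 d, -0.01 and -0.02 in UVD 4 h, -0.08 and 0.04 in SO 4 d, and 0.02 and -0.07 in SO 4 h. The miRNAs outside the family closest to this profile were miR-24-3p (0.037), let-7g-5p (0.043), miR-9a-5p (0.044), miR-3084a-3p (0.049) and let-7b-5p (0.050), as root mean square log2 differences over 8 arrays. The median over all 411 tested miRNAs outside the family was 0.165. The profile is nearly flat, so a small difference from it marks a miRNA that also varied little.

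The let-7, miR-29 and miR-181 families, also known from brain, were set beside miR-30. Of 19 let-7 and miR-98 miRNAs on the array 14 were tested, of 7 miR-29 miRNAs 6, and of 10 miR-181 miRNAs 7, and none was called in any comparison (limma). At 4 h the median log2 fold change of UVD over SO was 0.06 for the 11 miR-30 members, 0.04 for let-7, -0.08 for miR-29 and 0.00 for miR-181. The median size of change regardless of sign was 0.13 for miR-30, 0.07 for let-7, 0.08 for miR-29 and 0.05 for miR-181, and 0.14 over all tested miRNAs. At 4 d these sizes were 0.08, 0.08, 0.08 and 0.09, and 0.11 over all. The SD within groups had a median of 0.095 for the miR-30 5p arms, 0.17 for the 3p arms and 0.12 over all tested miRNAs on the log2 scale.

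**Figure D5:**
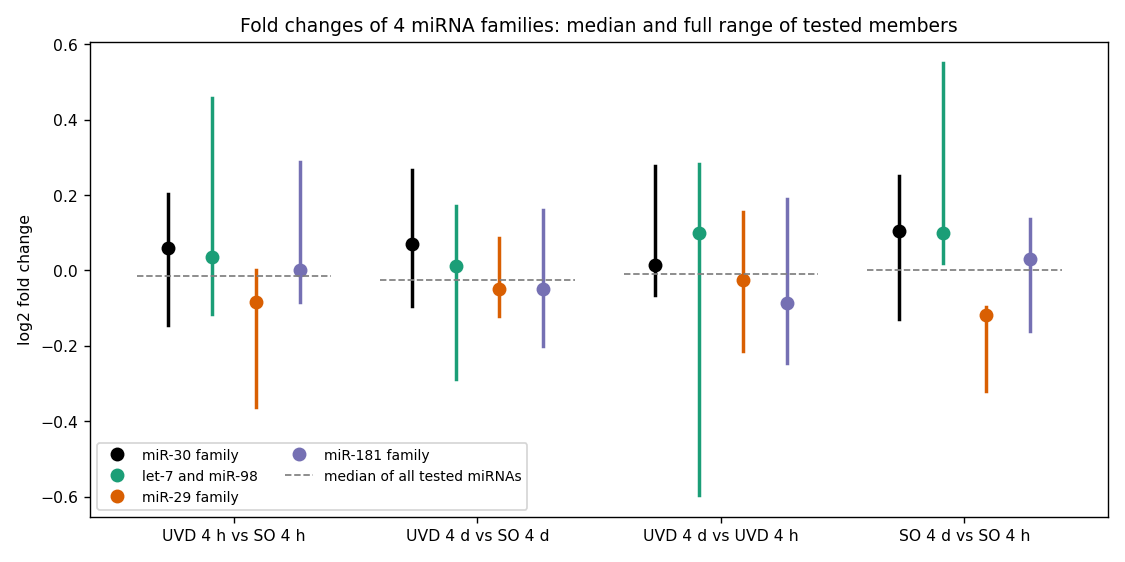
Median (points) and full range (lines) of the log2 fold changes of the tested members of 4 miRNA families, with the median of all 422 tested miRNAs dashed, in each comparison. The miR-30 range at 4 h runs from -0.14 to 0.20 and overlaps those of let-7, miR-29 and miR-181.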

How the data were processed

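RNA from left MVNs of 3 rats per pool was labelled with Cy3 and hybridised to Agilent rat miRNA arrays. The deposited scanner files were written by Agilent Feature Extraction 10.7.3.1 and hold the intensity of each spot and a total gene signal per miRNA. The authors also deposited normalized intensity values on a linear scale, quantile normalized in GeneSpring. The signal they normalized is not given in the sources used here.

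Here the total gene signal was quantile normalized without control spots, values under 1 were set to 1, and log2 was taken. The 422 miRNAs flagged as detected in the full array pair of 1 group or more were fitted with group means over all 8 arrays (limma 3.58.1, R 4.3.3), with Benjamini-Hochberg adjustment over the 422 and a threshold of 0.05. P-values measure the spread between pools.

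The members and lists were chosen with earlier results of these data known. Every member is named, and the alternatives follow the 3 members with the smallest p in each comparison. Likeness was a root mean square difference to the mean of the 5p arms. Array number limits the precision. Sequences, gene names and coordinates are from RefSeq, GRCr8.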

Additional observations from a re-analysis of the deposited data

How the results depend on the processing

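No member was called at an adjusted p under 0.05 in any alternative that uses one. By the methods' t-test at p under 0.15, 4 members were counted in UVD 4 h vs SO 4 h, 2 in UVD 4 d vs SO 4 d, 3 in UVD 4 d vs UVD 4 h and 4 in SO 4 d vs SO 4 h (139, 55, 112 and 141 of the 422 tested miRNAs). That test gives no p for miR-30a-3p at 4 h, as both SDs are 0, so it could not be counted. Other scalings moved the median of all miRNAs by over 0.1. With the 75th percentile over all miRNAs it was 0.15 in UVD 4 h vs SO 4 h, 0.20 in SO 4 d vs SO 4 h and -0.13 for the difference of time changes, and without scaling it was -0.11, 0.16, 0.26 and 0.31 in UVD 4 h vs SO 4 h, UVD 4 d vs SO 4 d, UVD 4 d vs UVD 4 h and the difference.

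The median of the 5p members also moved, not always with that of all miRNAs. In UVD 4 h vs SO 4 h it was 0.18 and 0.21 with the 75th percentile over detected and over all miRNAs, and -0.055 without scaling. In UVD 4 d vs SO 4 d it was 0.26 without scaling and -0.14 from the median spot signal. In UVD 4 d vs UVD 4 h it was 0.14 with the percentile over all miRNAs, 0.40 without scaling and -0.047 from the median spot signal. In SO 4 d vs SO 4 h it was 0.17 and 0.28 with the percentiles, 0.092 without scaling and 0.026 from the median spot signal. For the difference of time changes it was -0.12 and -0.14 with the percentiles, 0.30 without scaling, -0.096 from the median spot signal, 0.059 with normexp and 0.060 on the authors' values.

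Among named members, signs turned without scaling for miR-30e-5p at 4 h (-0.044) and for miR-30c-5p and miR-30e-5p in the difference of time changes (0.22 and 0.23). From the median spot signal they turned for miR-30c-5p at 4 h (-0.55), over SO time (-0.022) and in the difference (0.42), for miR-30b-5p (-0.011) and miR-30d-5p (-0.062) at 4 d and for miR-30a-5p over UVD time (-0.047). miR-30c-5p also turned in the difference with normexp (0.059) and on the authors' values (0.060), and the cause was not tested. On the authors' values miR-30c-5p was 0.019 at 4 h. In some setting 42 of 55 member values changed sign. Of 1177 recomputed values 120 did, 23 from the median spot signal, and none of the 120 was called. Settings altering only test, filter or floor cannot change a sign.

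Leaving out 1 array, where the lone array is assumed to vary like the other groups, gave medians of the 5p members of 0.0033 to 0.044 in UVD 4 h vs SO 4 h, 0.031 to 0.097 in UVD 4 d vs SO 4 d, 0.024 to 0.14 in UVD 4 d vs UVD 4 h, -0.11 to 0.10 in SO 4 d vs SO 4 h (above 0 without SO 4 h replicate 1, 0.10, or SO 4 d replicate 1, 0.053) and 0.036 to 0.19 for the difference. Calls over all miRNAs then ranged over 1 to 10, 0 to 1, 0 to 11, 1 to 12 and 0 to 7, and over 0 to 9, 0 to 2, 0 to 2, 0 to 19 and 0 to 3 in the other adjusted alternatives.

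Replicate numbers were not taken to pair the arrays. Correlations of replicate differences between groups ran from -0.26 to 0.19 over all tested miRNAs and from -0.47 to 0.63 over the members. With the replicate block no member was called (adjusted p of miR-30e-5p 0.358 at 4 h), and calls over all miRNAs in SO 4 d vs SO 4 h were 2 in place of 7. Exchanging the numbers of UVD 4 h, chosen after seeing the data, gave 2 and 0 calls over all miRNAs in UVD 4 h vs SO 4 h and UVD 4 d vs UVD 4 h. With 2 pools a group, the 95% interval of a dim member such as miR-30d-3p at 4 h ran from -0.65 to 0.38 on the log2 scale.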
